A study of Mus musculus with 9 samples.

Results

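Angiopoietins are secreted ligands of the endothelial receptor tyrosine kinase Tie2, and the genes followed here are the 3 ligand genes Angpt1, Angpt2 and Angpt4 and the 2 receptor genes Tek, which encodes Tie2, and Tie1. They were taken by gene symbol from the array annotation, each had 1 probe set, and they are 5 of 20405 named genes measured. RNA came from C57Bl6 mouse embryos (E11.5, in days of embryonic life), from the aorta-gonad-mesonephros or AGM, the site at which definitive blood stem cells arise from aortic endothelium. Flow sorting used CD144, the endothelial junction protein VE-cadherin, and CD45, a surface phosphatase of blood cells, and gave CD144+CD45+ cells, called HSPC, CD144-CD45+ cells, called HC, and CD144+CD45- cells, called EC, with 3 arrays each. No population carried a mutation or treatment according to the labels. Since nothing in the labels tells whether replicates were separate pools of embryos, the spread behind each p-value is that between these samples and may be technical. About 5 ng of RNA per sample was amplified before hybridisation, per the labels' protocols.

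Angpt1 activates Tie2 and is made mainly by mesenchymal and mural cells around vessels, and in the adult bone marrow of the mouse also by blood stem and progenitor cells. Angpt2 is stored and released by endothelial cells and acts as a weak or context-dependent agonist that can oppose Angpt1. Tie1 binds angiopoietins poorly by itself and modulates Tie2 as its partner. Mouse embryos without Angpt1 or Tek die with poorly organised vessels and hearts, and Tie2 is also present on blood stem cells, where Angpt1 has been linked to quiescence.

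Values are log2 expression values normalized by the authors, so that a difference of 1 is a doubling. A level of 4.69, under which 95% of all values of 1286 olfactory or vomeronasal receptor genes fell, served as the background level. Differences were tested with limma in 1 fit of all arrays, and a gene was called where its adjusted p (Benjamini-Hochberg over all 20405 genes of the comparison) was under 0.05. The gene of each sorted protein followed the sort: Cdh5, encoding CD144, averaged 10.47 in HSPC, 5.79 in HC and 11.70 in EC, and Ptprc, encoding CD45, 8.90 in HSPC, 9.95 in HC and 4.42 in EC. All 12 endothelial markers examined were higher in HSPC than in HC, and all 10 pan-leukocyte markers were higher in HSPC than in EC. The HSPC also carried macrophage signal. All 12 macrophage markers were higher in HSPC than in EC, and against HC 1 was higher and 10 were lower. The HSPC arrays were the least alike. On the main axis of variation, which carried 76.0% of the variance, HSPC replicates 1, 2 and 3 lay at -13.1, 21.3 and 6.31, HC arrays between 54.4 and 60.2 and EC arrays between -63.6 and -61.0, which places HSPC replicate 1 nearest to EC. Fewer cells of a type and less RNA per cell cannot be told apart in such bulk samples.

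Of the 5 genes, 4 were called between HSPC and EC (1 higher and 3 lower in HSPC, where 16.5% of all genes were called, 8.55% higher and 7.94% lower), 3 between HSPC and HC (all 3 higher in HSPC, where 14.6% of all genes were called, 7.01% higher and 7.61% lower) and 4 between HC and EC (1 higher and 3 lower in HC, where 27.4% of all genes were called, 14.8% higher and 12.6% lower). Arrays did not overlap for 5 of the 5 genes between HSPC and EC (28.2% of all genes), for 3 of 5 between HSPC and HC (29.6% of all genes) and for 5 of 5 between HC and EC (39.2% of all genes). The counts of 5 include Angpt4, whose values all lay under the background level, so its separation is not read as a difference. The ligand Angpt1 was highest in HSPC, both receptors were high in EC and HSPC and low in HC, Angpt2 was highest in EC, and Angpt4 lay at background in every population. The 3 comparisons share arrays and are not independent of each other.

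**Figure D1:**
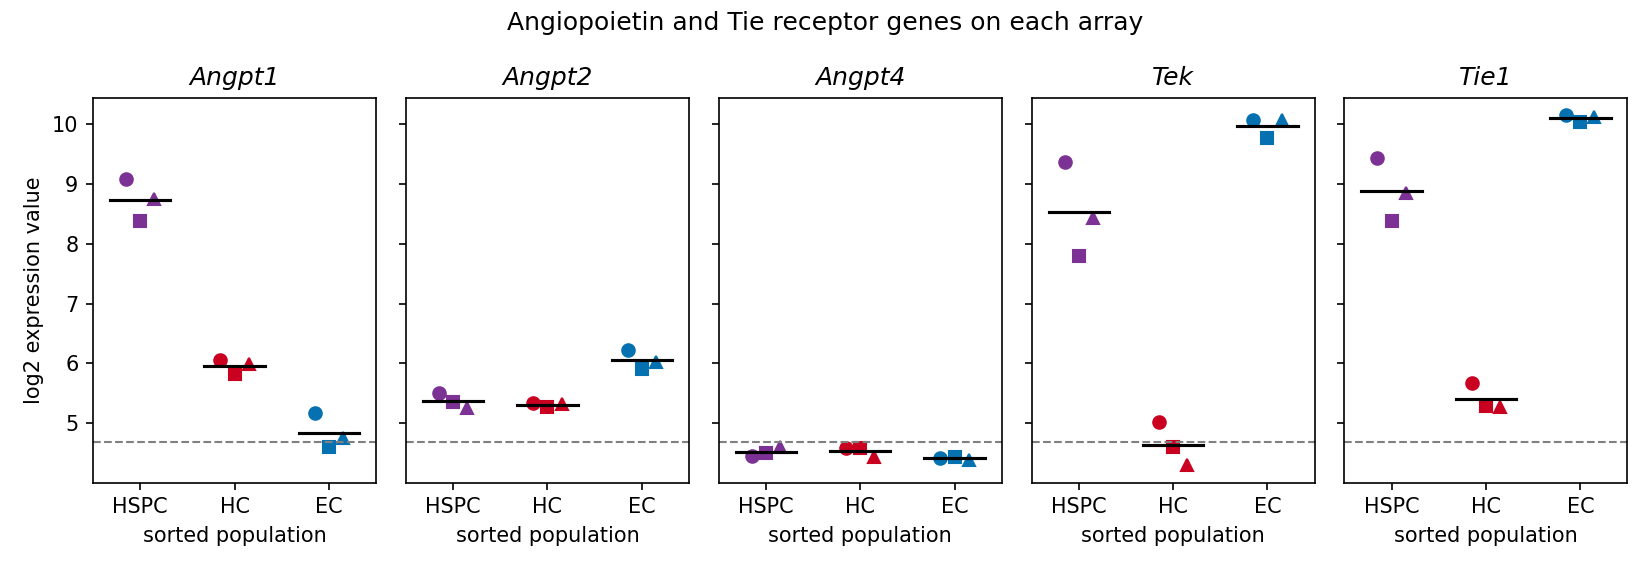
Log2 expression value (vertical axis) of each gene on each array, by sorted population (horizontal axis). Circles, squares and triangles are replicates 1, 2 and 3, horizontal bars are means of 3 arrays, and the dashed line is the background level of 4.69. Angpt1 is highest in HSPC, Tek and Tie1 are high in EC and HSPC, and all Angpt4 values lie under the line.

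Among the ligands, Angpt1 had values of 9.07, 8.39 and 8.75 in the 3 HSPC arrays, 6.06, 5.82 and 5.99 in the HC arrays, and 5.18, 4.60 and 4.75 in the EC arrays. The populations did not overlap, every HSPC array lay above every array of the other populations, and the EC arrays lay near the background level, 1 of them under it. Angpt1 in HSPC exceeded its EC level by 3.89 ± 0.19 (SE), a 14.8-fold difference (limma, adjusted p = 4.56e-06), with mean levels of 8.74 ± 0.34 in HSPC and 4.85 ± 0.30 in EC (SD, n = 3 each). It was higher in HSPC than in HC by 2.78 ± 0.19 (SE), which is 6.86-fold (limma, adjusted p = 7.41e-05), against an HC mean of 5.96 ± 0.12 (SD, n = 3). HC in turn were above EC by 1.11 ± 0.19 (SE), or 2.16-fold (limma, adjusted p = 0.00202). The order of the levels was thus HSPC, HC, EC, with every step larger than the spread.

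HSPC also lay above the midpoint of HC and EC for Angpt1, by 3.33 with a 95% interval from 2.96 to 3.71 (limma, adjusted p = 1.67e-05), a contrast in which 3 of the 5 genes were called, all higher, and 6.56% of all genes (3.79% higher and 2.77% lower). A total of 259 genes, 1.27% of those measured, were called higher in HSPC than in both other populations. Ordered by the smaller of the 2 differences, Angpt1 ranked 2 among them, after Hlf, a transcription factor of blood stem cells, which was 4.40 above EC and 3.99 above HC, and before the adhesion receptor Adgrg1, at 3.83 above EC and 2.64 above HC.

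The genes with the pattern most like that of Angpt1 over the 9 arrays, given as a description, were Cd27, a receptor of the tumour necrosis factor receptor family found on lymphocytes and progenitors (Pearson r = 0.998), Itih5, of a family that binds hyaluronan (r = 0.997), F5, which encodes coagulation factor V (r = 0.997), Adgrg1 (r = 0.994) and Stard10, a lipid transfer protein (r = 0.991). They were the closest of 2377 genes whose highest population mean lay above background and whose population means spanned at least 1 log2 unit, so that a gene could enter through 1 population and lie at background in another, as Itih5 did in EC. The correlations were taken over all 9 arrays, which share their normalization, and were not split into parts between and within the 3 populations. Cd27 averaged 8.30 in HSPC, 5.81 in HC and 4.90 in EC, the same order as Angpt1.

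Markers of cell types known to make Angpt1 were set beside it. Of 17 mural and mesenchymal markers 0 were called higher and 3 lower in HSPC than in EC (Abcc9, a potassium channel subunit, at -2.37, Rgs5 at -0.52 and Col3a1 at -0.43), with a median difference of -0.22 against 0.01 over all genes. Against HC, 1 was higher in HSPC (Abcc9, 0.85) and 1 lower (the receptor Pdgfrb, -0.45), with a median of -0.20 against -0.03. The mean level of the list lay between 5.07 and 5.36 on HSPC arrays, 5.18 and 5.45 on HC arrays, and 5.35 and 5.67 on EC arrays, and 5 of the 17 genes were at or under background in HSPC. The part of mural and mesenchymal cells in the Angpt1 difference was not tested.

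Of 9 measured megakaryocyte and platelet markers, 3 were called higher in HSPC than in EC (the integrin chain Itgb3 by 1.67, Gp9 by 1.17 and Itga2b by 0.84) and 2 higher than in HC (Itgb3 by 1.52 and Gp9 by 0.74). The list's mean level ran from 6.37 to 7.13 on HSPC arrays, 6.46 to 6.49 on HC arrays and 5.58 to 6.50 on EC arrays, and 0 of the 9 were at background in HSPC. The highest of these values was on HSPC replicate 2. Of 12 blood stem and progenitor markers 10 were called higher in HSPC than in EC, and 10 higher and 1 lower than in HC. Over all genes, 8.55% were called higher in HSPC than in EC and 7.01% higher than in HC. List means lay between 8.92 and 9.12 on HSPC arrays, 6.98 and 7.14 on HC arrays, and 6.32 and 6.58 on EC arrays. The list holds Hlf, Adgrg1 and Cd27, named above for a high level in HSPC or likeness to Angpt1. Its counts are therefore not independent of the Angpt1 pattern. The part of these cell types in the Angpt1 difference was not tested.

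Angpt2 moved the other way, and by less. Its values were 5.50, 5.35 and 5.26 in HSPC, 5.34, 5.27 and 5.32 in HC, and 6.23, 5.91 and 6.02 in EC. The EC arrays lay above all others, and HSPC and HC overlapped. Angpt2 was lower in HSPC than in EC, at -0.68 ± 0.10 (SE), a 1.61-fold difference (limma, adjusted p = 0.00139), and lower in HC than in EC, at -0.74 ± 0.10 (SE), or 1.67-fold (limma, adjusted p = 0.000365). Between HSPC and HC the difference was 0.06 with a 95% interval from -0.16 to 0.28 (limma, adjusted p = 0.759). All 3 means (5.37 in HSPC, 5.31 in HC and 6.05 in EC) were above the background level, but not far above it, a range in which array differences are compressed.

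The 5 genes closest in pattern to Angpt2 were Oit3 (r = 0.989), the thioredoxin family gene Nxn (r = 0.987), Creb3l2, a transcription factor anchored in the endoplasmic reticulum (r = 0.983), the collagen gene Col5a2 and the secreted protease gene Htra1 (both r = 0.980), over the same 9 arrays. Htra1 averaged 4.83 in HSPC, 4.51 in HC and 6.69 in EC. As for Angpt2, its mean was highest in EC.

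Angpt4, whose product in the mouse was first named Ang3, stayed between 4.38 and 4.60 on all 9 arrays. Its means of 4.52 in HSPC, 4.54 in HC and 4.42 in EC were all under the background level, so no fold is given. It was called in 0 of 3 comparisons by limma, with unadjusted p-values of 0.156 for HSPC against EC, 0.809 for HSPC against HC and 0.106 for HC against EC, so 0 passed at an unadjusted p under 0.05 either.

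**Figure D2:**
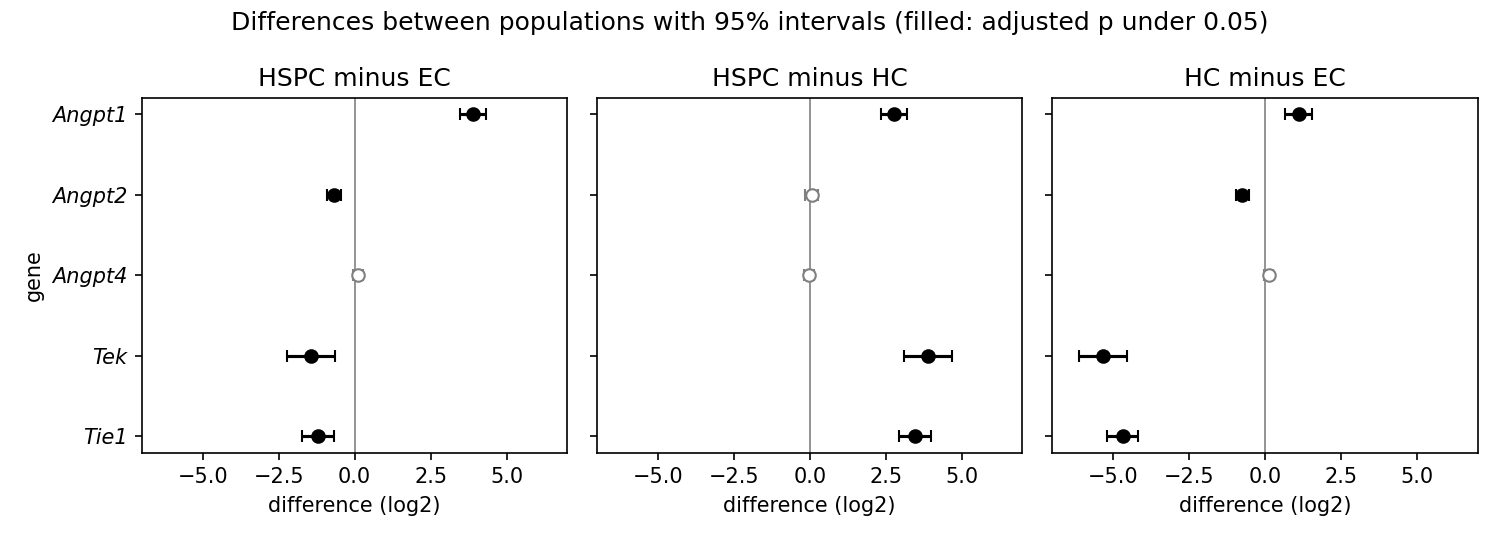
Difference in log2 expression (horizontal axis) of each gene (vertical axis) in 3 comparisons, with 95% intervals of the limma fit. Filled points were called at an adjusted p under 0.05 and open points were not. Angpt1 is the single gene above 0 in all 3 panels with a call in each, at 3.89, 2.78 and 1.11.

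Tek and Tie1 lie on the same mouse chromosome and their levels moved together, so the stretch around each start site is shown, from 250 bases before to 50 after it (RefSeq, GRCm38.p6, chr4:94739039-94739338 on the plus strand for Tek and chr4:118489800-118490099 on the minus strand for Tie1). Capitals mark the letters GGAA or TTCC, the core that Ets family factors bind, on either strand.
Tek: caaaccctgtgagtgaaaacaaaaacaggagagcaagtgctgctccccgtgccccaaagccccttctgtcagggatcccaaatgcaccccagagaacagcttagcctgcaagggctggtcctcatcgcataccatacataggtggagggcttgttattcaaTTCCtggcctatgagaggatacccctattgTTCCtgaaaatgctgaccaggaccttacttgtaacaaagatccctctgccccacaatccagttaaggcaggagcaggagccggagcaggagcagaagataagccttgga
Tie1: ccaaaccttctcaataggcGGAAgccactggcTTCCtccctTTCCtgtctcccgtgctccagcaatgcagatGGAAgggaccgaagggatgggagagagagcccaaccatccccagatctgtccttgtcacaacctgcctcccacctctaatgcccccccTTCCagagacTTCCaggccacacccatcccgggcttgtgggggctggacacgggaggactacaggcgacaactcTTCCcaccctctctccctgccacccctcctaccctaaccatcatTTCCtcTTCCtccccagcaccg

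The Tie1 window held 9 matches and the Tek window 2, where the median of 32851 mouse promoter windows of the same length was 3. At least 1 match was present in 96.0% of windows, at least 2 in 84.6% and at least 9 in 1.59%. The letters GATA (or TATC) were found 2 times in the Tek window and 0 times in the Tie1 window, and in 57.9% of windows. The E-box letters CANNTG were found 2 times in the Tek window and 1 time in the Tie1 window, and in 72.3% of windows. The forkhead letters AAACA (or TGTTT) were found 2 times in the Tek window and 0 times in the Tie1 window, and in 50.5% of windows. The hypoxia response letters ACGTG (or CACGT) were found 0 times in both windows, and in 19.6% of windows. Matches of different motifs may overlap, and a match of letters is a description, not a bound site. The promoter table matched 3 of the 5 genes, Angpt4 being the third, and Angpt1 and Angpt2 are not shown.

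Of the receptors, Tek had values of 9.37, 7.80 and 8.42 in HSPC, 5.02, 4.61 and 4.30 in HC, and 10.06, 9.77 and 10.07 in EC. The populations did not overlap, HSPC lay closer to EC than to HC, and HSPC arrays were spread over more than 1 log2 unit. Tek was higher in HSPC than in HC by 3.89 ± 0.35 (SE) (limma, adjusted p = 0.000254). Because the HC mean of 4.64 ± 0.36 (SD, n = 3) lay under background, that difference is given as at least 13.3-fold, and HC were likewise at least 35.9-fold lower than EC (limma, adjusted p = 7.47e-06). Between HSPC and EC the difference was -1.44 with a 95% interval from -2.23 to -0.64, or 2.70-fold lower in HSPC (limma, adjusted p = 0.0217), from means of 8.53 ± 0.79 in HSPC and 9.96 ± 0.17 in EC (SD, n = 3 each). That call was lost in limma when the fit held HSPC and EC alone (adjusted p = 0.0598) and without HSPC replicate 3 (adjusted p = 0.0724). It was also lost without EC replicate 1 (adjusted p = 0.0724) or 3 (adjusted p = 0.0706). The call was kept without HSPC replicate 1 (adjusted p = 0.0012) and without any 1 HC array (adjusted p 0.0295 to 0.039). It was kept close to the threshold without HSPC replicate 2 (adjusted p = 0.0494) or EC replicate 2 (adjusted p = 0.0455).

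Tie1 followed the same order. Its values were 9.42, 8.38 and 8.84 in HSPC, 5.67, 5.29 and 5.27 in HC, and 10.14, 10.03 and 10.11 in EC, without overlap between populations. Tie1 was lower in HSPC than in EC by a difference of -1.21 ± 0.23 (SE), or 2.31-fold (limma, adjusted p = 0.0064), and higher in HSPC than in HC by 3.47 ± 0.23 (SE), or 11.1-fold (limma, adjusted p = 6.6e-05). HC were 25.7-fold lower than EC (limma, adjusted p = 2.2e-06). Unlike Tek, Tie1 kept its call between HSPC and EC when any 1 array was left out, with adjusted p from 0.0005 to 0.0265, and its HC mean of 5.41 ± 0.23 (SD, n = 3) lay above background.

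Both receptors stood above the midpoint of HC and EC in HSPC on the log2 scale, Tie1 by 1.13 with a 95% interval from 0.68 to 1.58 (limma, adjusted p = 0.0118) and Tek by 1.23 with an interval from 0.54 to 1.91 (limma, adjusted p = 0.0479). The Tek value barely passed the threshold and was lost without any 1 of 8 of the 9 arrays, the exception being HSPC replicate 2 (adjusted p 0.0136 to 0.12), and after centring each array on its median (0.0572). Since HC lay at background for Tek, its midpoint is itself an upper limit. Angpt2 was not called in this contrast, at -0.31 (adjusted p = 0.0626), though it passed after repeated quantile normalization (0.0458) and after median centring (0.0476).

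Tek and Tie1 were among each other's closest genes, with r = 0.998 over 9 arrays. Tek ranked 3 for Tie1, and Tie1 ranked 4 for Tek. The others nearest to Tek were Heg1, a transmembrane protein needed for heart and vessel integrity (r = 0.999), the tight junction scaffold Tjp1 (r = 0.999), Shroom4, of a family that acts on the actin cytoskeleton (r = 0.998), and the adhesion receptor Adgrf5 (r = 0.998). Nearest to Tie1 were Adgrf5 (r = 0.999), the G protein subunit gene Gng11 (r = 0.999), Heg1 (r = 0.998) and Shroom4 (r = 0.997). Shroom4, Adgrf5 and Tek itself had HC means under background.

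Whether 2 members differed by unequal amounts was asked from the difference of their log2 values on each array. The test was an exact two-sided permutation test over 3 against 3 arrays, which cannot give a p under 0.1. Over the 9 such comparisons the lowest adjusted p obtained was 0.129. Between HSPC and EC, Tek and Tie1 changed by amounts that differed by -0.23, with overlapping arrays (exact p = 0.3, adjusted 0.3), and this value moved to -0.37 without HSPC replicate 1 and to -0.11 without HSPC replicate 2. In HC against EC the Tek difference was further below 0 than that of Tie1, at -0.64. The difference of Angpt1 lay above that of Tek by 5.33 between HSPC and EC, without overlap of arrays (exact p = 0.1, adjusted 0.129). The corresponding value was -1.11 between HSPC and HC and 6.43 between HC and EC. For Angpt2 relative to Tek the shift was 0.75 between HSPC and EC, with overlapping arrays (exact p = 0.3, adjusted 0.3). It moved to 1.10 without HSPC replicate 1 and to 0.39 without HSPC replicate 2. The corresponding value was -3.83 between HSPC and HC and 4.58 between HC and EC. Since the HC mean of Tek lay under background, each of these values that involves HC rests on a Tek level not resolved from background and is given as measured, with no test.

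The HSPC arrays differed from each other in the same way for the receptors and for other endothelial genes. As a share of the log2 distance from the EC mean (0%) to the HC mean, HSPC replicates 1, 2 and 3 lay at 11.2%, 40.7% and 29.0% for Tek and at 14.3%, 36.5% and 26.7% for Tie1. For Cdh5, the gene of the sorted protein, they lay at 9.93%, 32.8% and 19.6%. The endothelial marker list had mean levels of 9.33, 8.07 and 8.79 on HSPC replicates 1, 2 and 3, and 5.45 to 6.16 on HC arrays and 10.2 to 10.3 on EC arrays, and the macrophage list 8.20, 9.74 and 9.01 on the same HSPC replicates, 10.1 to 10.3 on HC arrays and 4.87 to 5.34 on EC arrays. HSPC replicate 1 therefore had the most endothelial and the least macrophage signal of the HSPC, and replicate 2 the reverse. Angpt1 was also highest on replicate 1 and lowest on replicate 2 of the HSPC, although its level in EC was near background. This order was not particular to HSPC. On replicates 1, 2 and 3 Angpt1 had values of 6.06, 5.82 and 5.99 in HC and 5.18, 4.60 and 4.75 in EC. The part of this makeup in the receptor differences was not tested.

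The VEGF receptors are the other main family of endothelial receptor tyrosine kinases. All 5 VEGF receptor and co-receptor genes listed were called lower in HSPC than in EC, where 7.94% of all genes were called lower, among them Flt4 (-2.34), Kdr (-2.30) and Nrp2 (-2.17), with a list median of -2.17 against 0.01 over all genes. Their HSPC arrays lay further from EC than those of the Tie receptors: the mean position was 43.0% for Kdr, 48.1% for Flt1 and 48.9% for Flt4, against 27.0% for Tek and 25.8% for Tie1, with a median of 33.1% and a range from 18.7% to 57.4% over the 12 endothelial markers. Taken per array, the HSPC minus EC difference of Tek lay above that of Kdr by 0.87, of Flt1 by 0.72 and of Flt4 by 0.91 on the log2 scale. That of Tie1 lay above Kdr by 1.09, Flt1 by 0.95 and Flt4 by 1.13. Arrays of HSPC and EC did not overlap in any of these 6 values. Each had exact p = 0.1 in the permutation test (adjusted 0.129 over 18 comparisons). An exact p of 0.1 is the smallest the design gives, so none could pass a threshold of 0.05. The HC means of Tek and Flt4 lay at background, which makes their distances to HC lower limits, and the comparison with these genes was chosen after their values were seen.

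**Figure D3:**
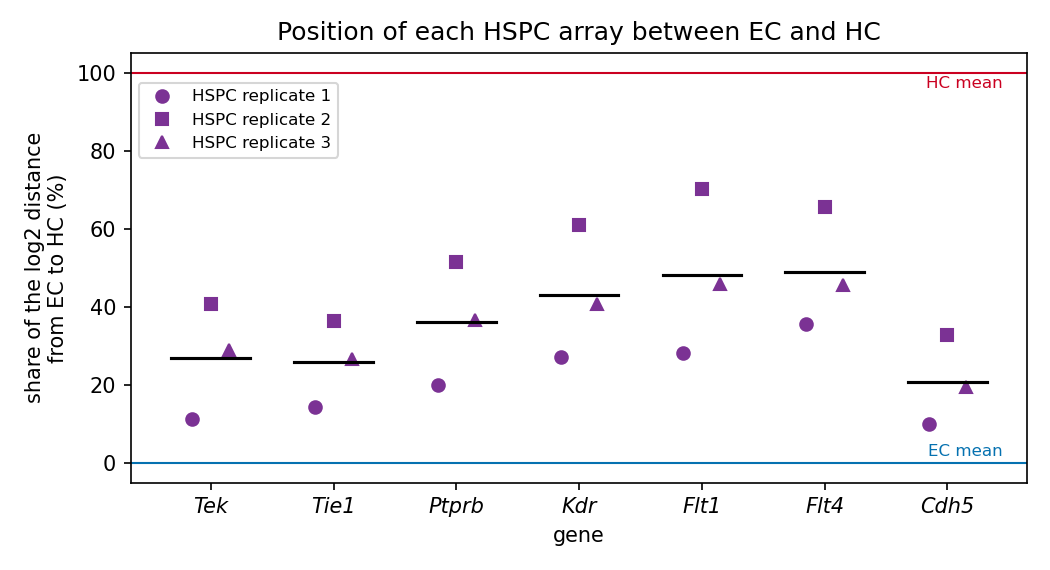
Position of each HSPC array (circles, squares and triangles for replicates 1, 2 and 3, bars for their mean) as a share of the log2 distance from the EC mean at 0% to the HC mean at 100% (vertical axis), for 7 genes (horizontal axis). Tek and Tie1 lie at 27.0% and 25.8%, lower than Kdr, Flt1 and Flt4 at 43.0% to 48.9%.

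Downstream and partner genes of the Tie receptors showed no common direction. Of 17 measured binding partners and adaptors, 6 were higher and 2 lower in HSPC than in EC (median 0.01 against 0.01 over all genes), 1 higher and 1 lower in HSPC than in HC (median -0.04 against -0.03), and 7 higher and 6 lower in HC than in EC (median 0.04 against 0.05 for all genes). Ptprb, the endothelial phosphatase VE-PTP that dephosphorylates Tie2, had the order of the receptors, with 8.93, 7.27 and 8.05 in HSPC, 5.28, 4.62 and 4.16 in HC, and 10.18, 9.75 and 10.06 in EC. It was 3.76-fold lower in HSPC than in EC (limma, adjusted p = 0.0112) and at least 9.16-fold higher in HSPC than in HC (limma, adjusted p = 0.000925). Dok2, an adaptor that binds activated Tie2 and is also a blood cell adaptor, was lowest in EC. Dok2 stood above EC in HSPC by 2.10 (limma, adjusted p = 8.98e-06) and in HC by 2.19 (limma, adjusted p = 2.98e-06). Its HSPC and HC arrays overlapped, with means of 7.27 and 7.36. The kinase gene Akt2 was above EC in HSPC by 0.98 and in HC by 1.72, and lower in HSPC than in HC (-0.74).

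Of 8 genes for other ligands of the Tie receptors and proteins that bind angiopoietins, 1 was higher and 3 lower in HSPC than in EC, 2 higher and 1 lower in HSPC than in HC, and 2 higher and 3 lower in HC than in EC. Mmp14, a membrane metalloproteinase that sheds Tie2, was lower by -2.03 in HSPC (limma, adjusted p = 0.00383) and by -3.07 in HC (limma, adjusted p = 0.000157) than in EC. Itgb3, which also stands in the megakaryocyte list, was higher in HSPC than in both other populations, by the values given above, and Itga5, a chain of the fibronectin receptor, which also binds angiopoietins, was lower in HSPC than in EC (-0.82) and higher than in HC (1.11). Svep1, a ligand of Tie1, and Lect2, another, were at or under background in all 3 populations. Among 5 angiopoietin-like genes, Angptl4, an inhibitor of lipoprotein lipase, was above EC in HSPC by 0.66 and in HC by 0.85 and the rest were not called in any comparison.

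Active Tie2 restrains the factor Foxo1 through Akt, and Angpt2 is a Foxo1 target. Of 15 genes listed as Foxo factors and reported Foxo1 targets, 4 were higher and 4 lower in HSPC than in EC, 3 higher and 3 lower in HSPC than in HC, and 5 higher and 4 lower in HC than in EC, with medians of 0.03, -0.25 and 0.37. Against EC, HSPC had more Cited2, a transcriptional co-regulator (1.85), and Bcl6, a transcriptional repressor (at least 2.12-fold, as EC lay at background), and less Esm1, a secreted proteoglycan of sprouting endothelium (-1.57). Against HC, HSPC had less Bcl6 (-1.33) and Cited2 (-0.82) and more Sesn3, a stress response gene (0.95). Bcl6 and Cited2 thus had their highest level in HC and Esm1 in EC.

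Of 15 reported upstream factors of Tek and Tie1, 2 were higher and 3 lower in HSPC than in EC, 7 were higher and 0 lower in HSPC than in HC (median 0.30 against -0.03 over all genes), and 1 was higher and 9 lower in HC than in EC (median -0.46 against 0.05). Over all genes, 8.55% were called higher and 7.94% lower between HSPC and EC, 7.01% higher and 7.61% lower between HSPC and HC, and 14.8% higher and 12.6% lower between HC and EC, which is also the background for the counts of the other lists. Epas1, which encodes the hypoxia-inducible factor HIF-2 alpha, averaged 8.11 in HSPC, 5.53 in HC and 10.26 in EC, the order of the receptors, and was lower in HSPC than in EC by a difference of -2.15 (limma, adjusted p = 0.000904). Ets1 also had this order, at 8.07 in HSPC, 6.57 in HC and 10.14 in EC. Erg, an Ets factor of endothelium and blood stem cells, was higher in HSPC than in HC by 3.22 (limma, adjusted p = 6.73e-06) but differed from EC by -0.11, with adjusted p = 0.751 in limma, and Elf1 in HSPC exceeded EC by 1.64. The Ets genes of this list therefore did not share 1 pattern.

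**Figure D4:**
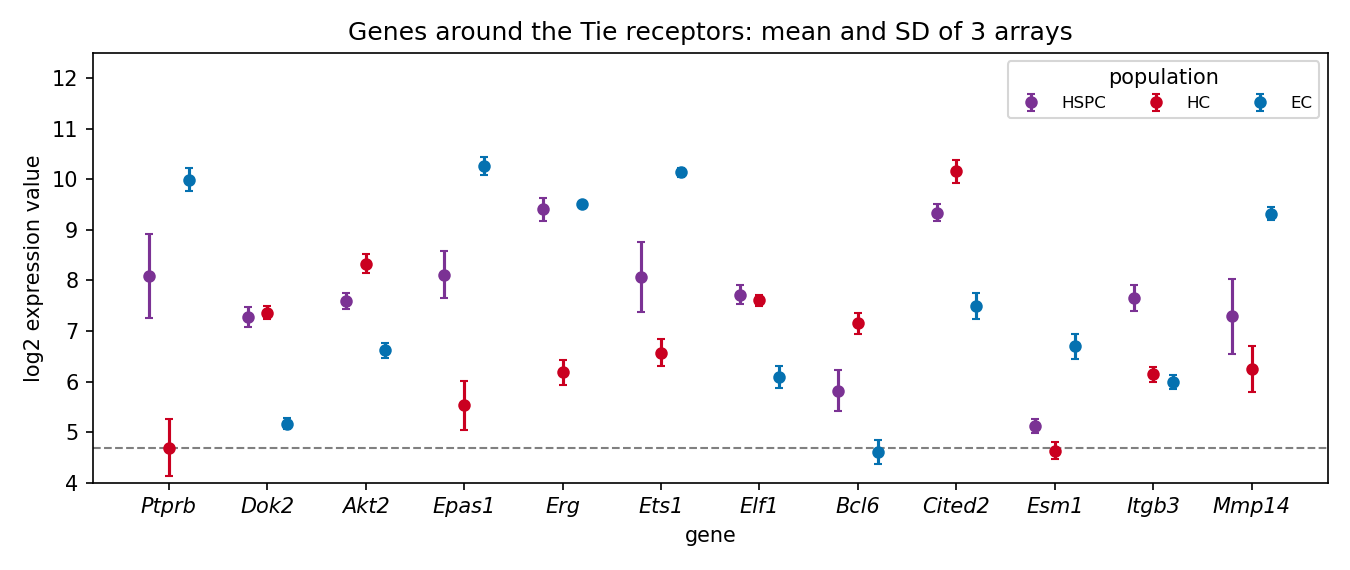
Mean log2 expression value (vertical axis) of 12 genes around the Tie receptors (horizontal axis) in HSPC, HC and EC, with bars of 1 SD over 3 arrays and the background level of 4.69 as a dashed line. Ptprb, Epas1 and Ets1 are highest in EC and lowest in HC, Dok2 is lowest in EC, and Itgb3 is highest in HSPC.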

How the data were processed

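Labelled cDNA amplified from RNA of the sorted cells was hybridised to Affymetrix MouseGene arrays; the labels' protocols name 2 array types without assigning them to samples. The deposited values are log2 expression values, made by the authors with RMA and Partek, per the submitters' processing notes; for versions, array description file and genome build, the entry is: not given in the sources used here. RMA puts all arrays on 1 scale, so a change in total RNA per cell is not visible and differences near background are compressed. Of 21115 probe sets, 20405 had 1 symbol in the platform annotation and 710 had none and were not tested. Groups came from the sort label in each title. Tests used limma 3.58.1 in R 4.3.3 (lmFit, eBayes, two-sided, 6 residual degrees of freedom plus 2.75 from eBayes). Folds against a mean at or under background are bounds, with the lower group's values raised to 4.69. The number of arrays limits precision.

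The members and all lists were chosen with earlier results of these data known. The naming rule took all 5 members, up to 3 called genes with the largest difference per list and comparison, Ptprb, Cdh5, Ptprc, and the 5 genes of highest Pearson r per member. Of 168 list entries 159 were measured. The result of the neutrophil list was 1 of 8 higher in HSPC than in EC and 7 of 8 lower than in HC. Of 6 measured erythroid markers 0 were called higher in HSPC than in EC or HC, and of 8 epithelial markers 1 was higher than in each (Krt18). Deviations of same-numbered arrays correlated at over 0.1 in 1 of 9 pairs, and 4 of 9 arrays correlated best with their own number. With 3 arrays per group these values do not settle whether replicate numbers pair the samples. On simulated data for HSPC against EC (20405 genes) limma recovered 88% of 100 changes of 1 log2 unit and 99% of 100 changes of 2. Of its 195 calls, 8 were of unchanged genes. The simulation gave each gene 1 spread in all populations and changed no other genes, where 16.5% of all genes were called in the data. Its rates therefore do not carry over to these data or to genes of unequal spread, such as Tek (SD 0.79 in HSPC and 0.17 in EC). Alternatives were another quantile normalization, median centring, a filter on dim probe sets, trend and robust options, array weights, fits of 2 groups, the replicate block, unnamed probe sets and each array left out.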

Additional observations from a re-analysis of the deposited data

How the results depend on the processing

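Of 11 called differences of single members between populations, none reversed in 187 alternative values and 183 kept their call. Many of these values could not reverse, as only the p-value can change. This holds for the dim filter, trend and robust options, fits of 2 groups, the replicate block and unnamed probe sets. It also holds where the array left out belonged to the population not compared. The 4 calls lost were all Tek between HSPC and EC: -1.44 with 2 groups in the fit, and 3 of the 9 fits that left out an array. Leaving out arrays in turn gave -1.85 to -1.07 for that difference, 0.81 to 1.59 for Tek above the midpoint of HC and EC, -0.0066 to 0.115 for Angpt2 and -0.066 to 0.013 for Angpt4 between HSPC and HC, and -0.0239 to 0.101 for Tek relative to Kdr between HC and EC, an alternative added after seeing the data. Median centring lowered Tek above the midpoint to 1.18, and that call was lost (limma, adjusted p = 0.0572). In the same contrast Angpt2 became called, at -0.36 with centring and -0.35 with repeated quantile normalization. Angpt4 between HSPC and HC, not called in any setting, turned sign to 0.0288 with repeated quantile normalization and 0.00068 with array weights. The dim filter leaves Angpt4 out. The replicate block, for samples not known to share more than a number, changed no call of a member. With groups of equal size the block cannot move a difference, so Angpt1 stayed at 3.89 and Tek at -1.44 for HSPC against EC. The fit with the replicate block called 3274 genes between HSPC and EC, 2801 between HSPC and HC and 5434 between HC and EC. Of the calls between HSPC and EC, 51.8% were higher in HSPC on the deposited scale and 41.3% after median centring. Counts of called genes stayed within 1.5 times the main count. The causes of these changes were not tested. Weak signal limits Angpt4, Angpt2, Angpt1 in EC and Tek in HC.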
